A study of Homo sapiens with 3 samples.

Results

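Aminoacyl-tRNA synthetases join each amino acid to its transfer RNA, and 36 human genes for them were followed through the ribosome peaks of HEK293T cells, an established human embryonic kidney line. The 36 genes were a fixed list of 20 cytosolic and 16 mitochondrial enzymes, chosen by name. A peak was given to a synthetase when the RefSeq transcript in its annotation belonged to that gene, or otherwise when the nearest gene named beside it did. By this rule 272 of the 46819 peaks in the series belonged to 18 of the 36 genes, and 18 genes had 0 peaks in every sample. The cells had been transfected for 24 h with the empty pCDNA3.1 vector, with FLAG-tagged wild-type DDX3X or with FLAG-tagged DDX3X G325E, a substitution found in medulloblastoma, and there was 1 library per construct, so no difference below can be set against a spread between cultures. DDX3X is an RNA helicase that takes part in translation initiation. Expression was transient, and no source names a loss of the cells' own DDX3X. Per the labels, all cells were given harringtonine (2 µg/ml, 90 s), a drug that arrests ribosomes as they begin a coding sequence, followed by cycloheximide (100 µg/ml), which arrests those already under way. In the study's methods cycloheximide stands alone, and which account holds for these libraries could not be settled from the files.

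Synthetases fall into 2 unrelated structural classes, I and II, which differ in the fold of the catalytic domain. Several cytosolic enzymes of both classes sit in one large multisynthetase complex held together by scaffold proteins, while most mitochondrial tRNAs are charged by a separate set of nuclear-encoded enzymes. A few genes serve both compartments, in the case of GARS from alternative start codons on one mRNA.

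The files list where ribosome-protected fragments reached the authors' coverage cut-off in each sample, with no height or read count, so a peak says only that coverage passed the cut-off. Read depth is not in the files. By the library totals in the study's supplement, wild-type, the sample with the longest list, had the most non-duplicated mapped reads, followed by vector and then G325E. Depth thus moved with peak number in each comparison with wild-type, and its part, like that of mRNA level, was not tested. The vector, wild-type and G325E lists held 11219, 19920 and 15680 peaks. Peak numbers in the vector and wild-type lists skip 1952 and 3099 values, and those in the G325E list skip 0. DDX3X, the gene the constructs express, had 0, 31 and 8 peaks on its exons in the same order, which is kept wherever 3 values are given. The labels call the cells neuronal. Of 12 neuronal marker genes, 3 (TUBB3, NEFL and NEFM) had peaks on their exons, in all 3 samples, and the other 9 had 0, among them MAP2, RBFOX3, SNAP25 and SYN1. Of 8 epithelial and kidney markers, KRT18 alone had such peaks (0, 11 and 0), and 5 fibroblast markers had 0.

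The sequences on which the start-codon and shared-site results rest are given first (GRCh37, 5′ to 3′ on the strand of the gene, 30 nt each). The first set holds start codons that lay under a peak in at least 1 sample, with the ATG in capitals. Those of GARS and YARS were covered in wild-type and G325E, that of KARS in wild-type alone and that of EARS2 in G325E alone. EARS2 comes from the rule that sequences be shown for sites of all 3 samples or of G325E alone, and the others were added after their values were seen.
GARS annotated start, exon 1, plus strand, chr7:30634523-30634552: cagggccgcaggctcATGccctctccgcgt
GARS next in-frame ATG, exon 1, plus strand, chr7:30634685-30634714: gcctcccggagcagcATGgacggcgcgggg
YARS, exon 1, minus strand, chr1:33282831-33282860: aggggtagcggagccATGggggacgctccc
KARS, exon 1, minus strand, chr16:75681523-75681552: gggccctccgggaagATGgcggccgtgcag
EARS2, exon 1, minus strand, chr16:23568650-23568679: gctattccatcccacATGgcggcgctcctg

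The second set holds, for 3 members with bases covered by a peak in all 3 samples, the longest such run of at most 30 nt, in capitals, within its exon.
FARSA, exon 8, coding, minus strand, chr19:13035905-13035934: cccactCTCAGGGCGGCTACGGCTCACAGG
SARS, exon 10, coding, plus strand, chr1:109779929-109779958: cTGGAGAACTACCAGACAGAGAAGGGCATC
VARS, exon 5, coding, minus strand, chr6:31760264-31760293: GCCCCGAGGCTCCtgccctcccaaagacag

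By the annotation, 57, 148 and 67 peaks belonged to synthetases. These were 0.508% (95% Wilson interval 0.392 to 0.658), 0.743% (0.633 to 0.872) and 0.427% (0.337 to 0.542) of the lists. These intervals cover counting error only and take peaks as independent, which neighbouring peaks of one mRNA are not. A number of 3 peaks, the floor chosen for the bounds below, came to 0.0267%, 0.0151% and 0.0191% of the lists. Of the 18 members with a peak in any list, all 18 had one in wild-type and 9 each in vector and G325E. Of all genes with a peak in any list, 83.7% had one in wild-type, 55.5% in vector and 63.9% in G325E.

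The annotation takes no account of strand, so each peak was also placed by position. Of the 272 peaks, 185 (68.0%) had their midpoint on an exon of the synthetase on its own strand, 13 lay in its introns, 21 on its opposite strand and 53 beyond its transcript. On the other hand, 24 peaks on synthetase exons had been given to a neighbour, among them 12 on MARS given to DDIT3, 8 on YARS given to S100PBP and 2 on VARS given to VWA7. Unless the annotation is named, what follows rests on the resulting 209 own-exon peaks (46, 122 and 41) on 17 members. They made up 0.575% (0.431 to 0.766), 0.871% (0.730 to 1.04) and 0.435% (0.321 to 0.590) of the same-strand exonic peaks of all genes.

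Placement changed 3 members most. AARS (alanine) had 0, 3 and 5 annotated peaks, but 0 on its own exons. All 8 lay past its 3′ end, 7 of them on an exon of the exosome gene EXOSC6. KARS (lysine; cytosol and mitochondria) had 9, 14 and 7 annotated peaks, of which 26 lay on the opposite strand beyond its 5′ end, 23 of them on exons of TERF2IP, which starts there in the other direction. On its own exons KARS had 0, 5 and 0. EARS2 (mitochondrial glutamate) had 0, 2 and 7 annotated peaks, of which 8 lay beyond its 5′ end, 6 of them on exons of UBFD1. On its own exon it had 0, 0 and 2.

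**Figure D1:**
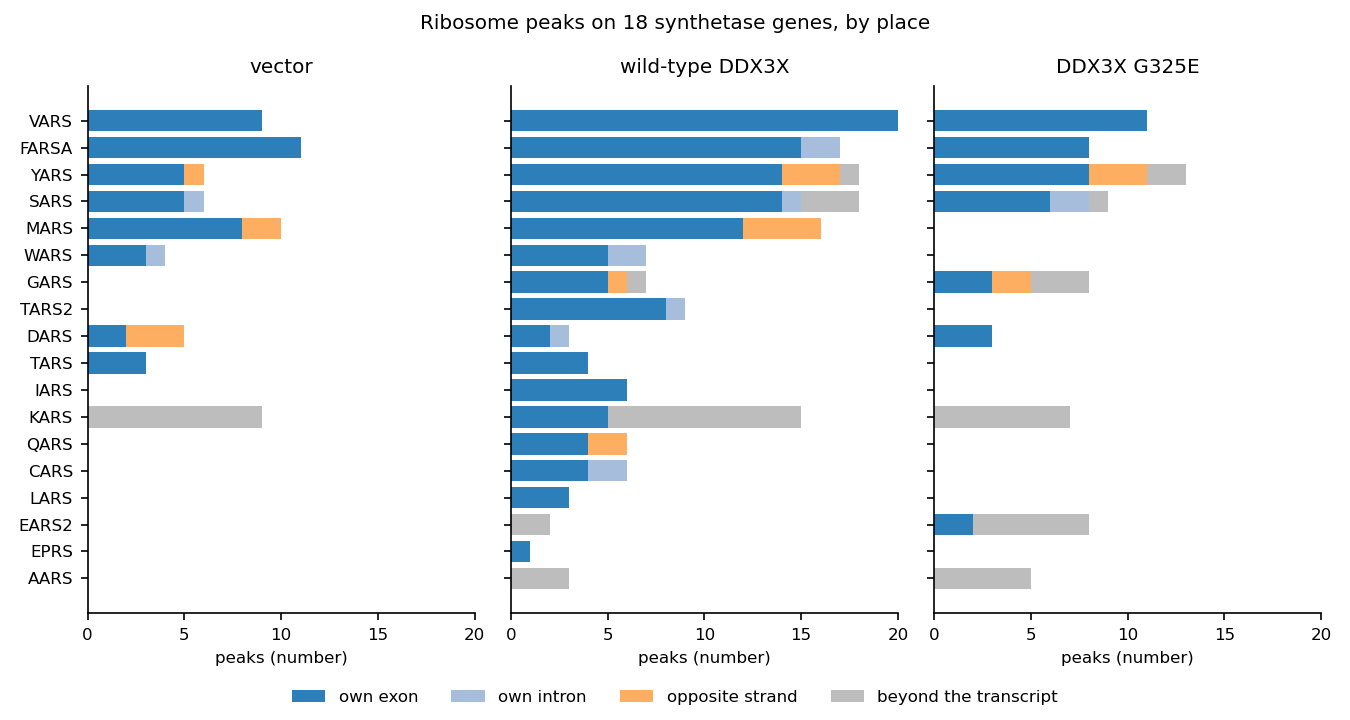
Number of peaks (horizontal axis) on the 18 synthetases with any peak, one panel per sample, 1 library each. Bars are split into peaks on the gene's own exons and strand (also those the annotation gave to a neighbour), in its introns, on its opposite strand, and beyond its transcript. Own-exon peaks on CARS, EPRS, IARS, KARS, LARS, QARS and TARS2 appear in the wild-type panel alone, and AARS has none in any panel.

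The cytosolic enzymes outside the multisynthetase complex carried most peaks. VARS (valine, class I, chromosome 6, 31745295 to 31763529, minus strand, 30 exons) had 9, 20 and 11 own-exon peaks. FARSA, the alpha subunit of phenylalanyl-tRNA synthetase (class II, chromosome 19, 13033293 to 13044528, minus strand, 13 exons), had 11, 15 and 8. SARS (serine, class II, chromosome 1, 109756540 to 109780804, plus strand, 11 exons) had 5, 14 and 6. YARS (tyrosine, class I, chromosome 1, 33240840 to 33283632, minus strand, 13 exons) had 5, 14 and 8. In all 4 the wild-type list had the most peaks, as it did over all genes.

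The remaining cytosolic enzymes of this group had fewer. GARS (glycine, class II, chromosome 7, 30634449 to 30673649, plus strand, 17 exons) had 0, 5 and 3 own-exon peaks. WARS (tryptophan, class I, chromosome 14, 100800127 to 100841945, minus strand) had 3, 5 and 0, and TARS (threonine, class II, chromosome 5, 33441071 to 33468191, plus strand) had 3, 4 and 0. CARS (cysteine, class I) had 0, 4 and 0. FARSB, the beta subunit that pairs with FARSA, had 0 in every sample, as did HARS (histidine), NARS (asparagine) and AARS.

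Of the 8 members in the multisynthetase complex, 7 had an own-exon peak in wild-type, 2 in vector (DARS and MARS) and 1 in G325E (DARS). MARS (methionine, class I, chromosome 12, 57881851 to 57910435, plus strand, 21 exons) had 8, 12 and 0. Scaled to the same-strand exonic peaks and with 0 set to 3 peaks in the G325E library, the G325E number for MARS was at least 2.67-fold lower than that of wild-type, and at least 3.10-fold lower than that of vector. DARS (aspartate, class II, chromosome 2, 136663451 to 136743196, minus strand) had 2, 2 and 3. Wild-type alone had peaks on IARS (isoleucine, 6), KARS (5), QARS (glutamine, 4), LARS (leucine, 3) and EPRS (the fused glutamate and proline enzyme, 1), and RARS (arginine) had 0 throughout. The complex held 10, 33 and 3 own-exon peaks in all, where all genes held 8002, 14014 and 9417 same-strand exonic peaks. The share of all genes with an own-exon peak was not computed. By the annotation, 55.5%, 83.7% and 63.9% of all genes with a peak in any list had one in vector, wild-type and G325E. Those genes leave out any without a peak, such as RARS. By the annotation KARS had peaks in each sample (9, 14 and 7), so the own-exon counts of the complex cannot be set directly against these shares. Between the peaks that flank these 8 genes, the vector list skips 23 peak numbers, 20 of them around DARS, so that its 10 peaks may be an undercount. The other lists skip 0 there.

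Among the 16 mitochondrial enzymes, 2 had own-exon peaks. TARS2 (threonine, chromosome 1, 150459890 to 150480078, plus strand, 18 exons) had 8 in wild-type and 0 in the other samples. With peaks in wild-type alone it could only come out lower in G325E. The bound, at least 1.78-fold lower on the same scale, is thus a description. EARS2 had 2, in G325E alone. The other 14, from AARS2 to YARS2, had 0. Across the mitochondrial genes the vector list skips 15 numbers and the wild-type list 11, with 6 and 5 at NARS2, so entries may be missing there too. By class, 9 of 18 class I members and 7 of 17 class II members had an own-exon peak in some sample. EPRS, which joins both classes, was counted in neither.

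For members and all other genes alike, peak numbers scaled to equal totals were then compared, and a gene with at least 5 peaks in all was called when its number differed by at least 2-fold after 0.5 was added. By the annotation, 7 of 16 members were lower in G325E than in wild-type (43.8%), against a background of 30.3% of the 2829 genes compared, and 1 was higher (6.25%), against 23.6%. All 7 (CARS, IARS, MARS, QARS, TARS, TARS2 and WARS) had 0 G325E peaks, so that the size of their ratio depends on the added 0.5. With 0 set to 3 peaks instead, only MARS (2.63-fold) and TARS2 (2.37-fold) stayed past 2-fold. WARS (1.84), CARS, IARS and QARS (1.58 each) and TARS (1.05) did not. The 30.3% was not recomputed in this way. CARS, IARS, QARS and TARS2 passed the filter of 5 peaks through wild-type alone and had to differ, so the count is a description. It was 2 among genes with at least 10 peaks, 4 with peaks of 50% to 70% GC and 3 with the RefSeq names of the files only. The share over all genes was not computed for these settings, so these counts cannot be set against the 30.3%. The one called higher was EARS2, through its peaks on the UBFD1 side. The median log2 ratio was −0.67 over members and 0.02 over all genes, and −0.63 over members when those at 0 in 1 sample were set to the bound that 3 peaks give (or to no difference where there is no bound). The largest ratios after EARS2 were those of AARS (0.95) and GARS (0.50), neither past the 2-fold line.

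Against vector, 3 members were higher in G325E (AARS, EARS2 and GARS; 18.8%, background 28.5%) and 4 were lower (DARS, MARS, TARS and WARS; 25.0%, background 23.9%), with a median log2 ratio of 0.00 over members and over all genes. Wild-type was higher than vector for 7 members (43.8%, background 25.8%) and lower for 1 (DARS, 6.25%, background 15.0%), with medians of 0.58 over members (0.16 at the bounds) and −0.03 over all genes. The 7 were AARS, CARS, EARS2, GARS, IARS, QARS and TARS2, each at 0 in vector, and the same 4 had again passed through wild-type alone. With 0 set to 3 peaks, none of the 7 reached 2-fold (highest TARS2, 1.68). Of the members called between G325E and vector, those at 0 in either did not reach it either (highest GARS, 1.90). Each sample enters 2 of these comparisons, so they are not independent of each other.

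Over own-exon peaks, 12 members and 2121 genes had enough peaks. Of the 12, 6 were called lower in G325E against wild-type (background 31.3%) and 0 were called higher (background 17.8%). The 6 were IARS, KARS, MARS, TARS, TARS2 and WARS, again all at 0 in G325E, and IARS, KARS and TARS2 had peaks in wild-type alone. With 0 set to 3 peaks, MARS alone stayed past 2-fold (2.67). The median log2 ratio was −1.76 over members and 0.09 over all genes, but −0.24 over members at the bounds, so that most of it rests on the 0.5 added to a number of 0. GARS was the 1 member higher in G325E than in vector (8.33%, background 23.0%), with 3 peaks against 0, and MARS, TARS and WARS were lower (25.0%, background 24.2%). Among these, only MARS (3.10) stayed past 2-fold with 0 set to 3 peaks. Wild-type was higher than vector for 4 members (33.3%, background 25.0%), GARS, IARS, KARS and TARS2, and lower for 0 (background 14.6%). None of these 4 reached 2-fold with 0 set to 3 peaks (highest TARS2, 1.53). DARS was no longer lower, since 3 of its 5 vector peaks lay on the opposite strand. Its own-exon log2 ratio was 0.31 in G325E against vector and −0.64 in wild-type against vector.

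Own-exon peaks were next grouped into stretches by their distance in the genome, so that a long intron parts exons that adjoin in the mRNA. Peaks at most 1000 bp apart in the genome formed 32 stretches on the 17 members, of which 13, 31 and 9 had a peak. Of the 32, 5 had peaks in all 3 samples: exon 1 of DARS, exons 8 to 10 of FARSA, exon 1 and exons 10 to 11 of SARS, and exons 3 to 8 of VARS. Stretches were not formed for other genes, so these counts have no background and are a description. Peaks of different samples could share their edges, as on exon 6 of VARS, where 1 peak covered 31759995 to 31760026 in both vector and G325E and 4 nt more in wild-type.

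On FARSA, stretches that adjoin in the mRNA were filled in different samples. Exons 2 to 4 held 6, 6 and 0 peaks, exons 5 to 7 held 0, 4 and 4, and exons 8 to 10 held 5, 5 and 4. No other FARSA exon had a peak in any sample. Of the 11 vector and 8 G325E peaks, only those on exons 8 to 10 lay on the same part of the mRNA. On VARS, exons 3 to 8 held 9, 10 and 11 peaks, exons 17 to 21 held 0, 8 and 0, and exon 30 held 0, 2 and 0. The later stretches were in wild-type alone. In the first, a run on exon 5 covered by 1 peak each in vector and wild-type was split into 4 in G325E, so peak numbers and covered length differ. The own-exon peaks of VARS covered 299, 622 and 234 bases, and by bases covered its annotated log2 ratio of G325E was −0.89 against vector (−0.19 by peaks) and −1.02 against wild-type (−0.35 by peaks).

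YARS was split between its ends. Exon 1, with the 5′-UTR and start codon, held 0, 7 and 8 peaks, whereas exon 9 held 1, 3 and 0, and exons 10 and 12 held 2, 2 and 0 each. Its exon 1 overlaps S100PBP on the other strand, and peaks lay there on both strands. SARS had 1, 3 and 1 peaks on exon 1 and 4, 7 and 5 on exons 10 to 11, and wild-type alone had 2 on exon 2 and 2 on exon 3. On MARS, exon 9 held 2, 2 and 0 and exons 17 to 21 held 6, 10 and 0, and on WARS exon 9 held 3, 3 and 0 and exon 11 held 0, 2 and 0.

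**Figure D2:**
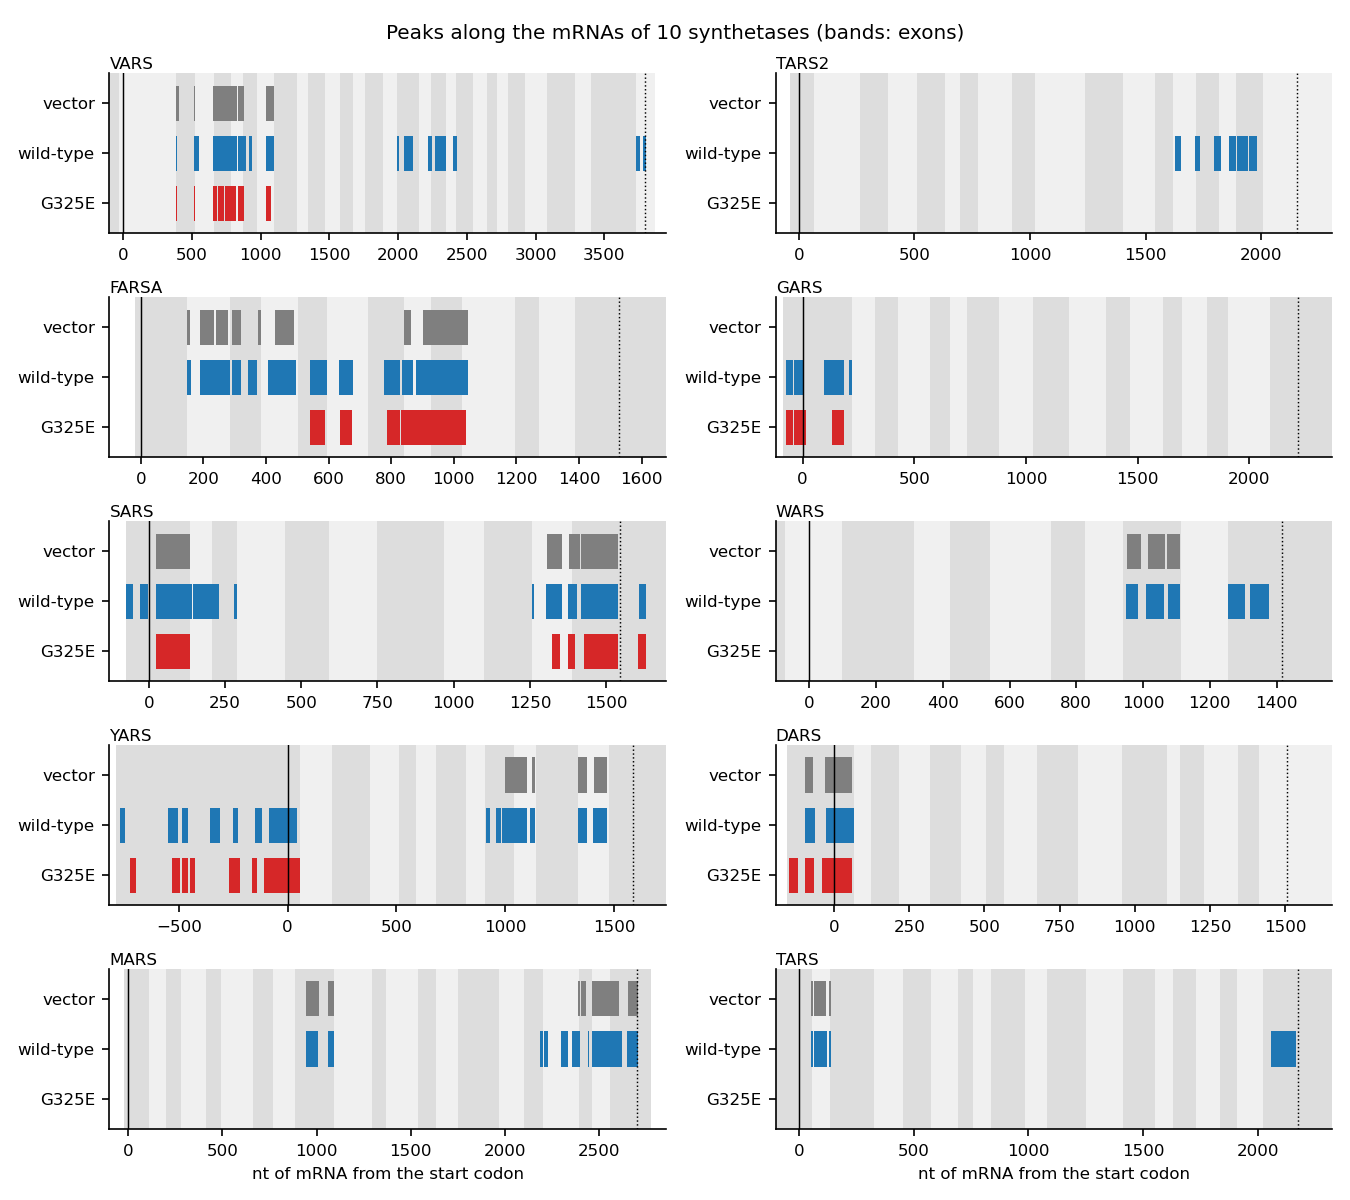
Own-exon peaks of 10 synthetases along their mRNAs (horizontal axis, nt from the start codon, with a solid line at the start codon, a dotted line at the stop codon and exons as grey bands, peaks under 8 nt being drawn 8 nt wide), one row per sample. FARSA exons 8 to 10 and VARS exons 3 to 8 are covered in all rows, the later part of YARS in vector and wild-type, and its exon 1 in wild-type and G325E.

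Of the 20 stretches with at least 3 wild-type peaks, 11 had 0 peaks in vector and 13 had 0 in G325E. They were picked by the longest list, so that empty ones in the others are no result about synthetases. The authors numbered peaks along the genome, so an entry missing from a list leaves a gap in the numbers. The G325E numbers have no gap anywhere and so cannot show a missing entry. In vector, no number was skipped across 6 of the 11 empty stretches. For the other 5 (on GARS, IARS, KARS and LARS), 1 number was skipped in vector between the flanking peaks, and what that entry held is not known here. In the wild-type list 10 numbers were skipped across the WARS stretches.

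**Figure D3:**
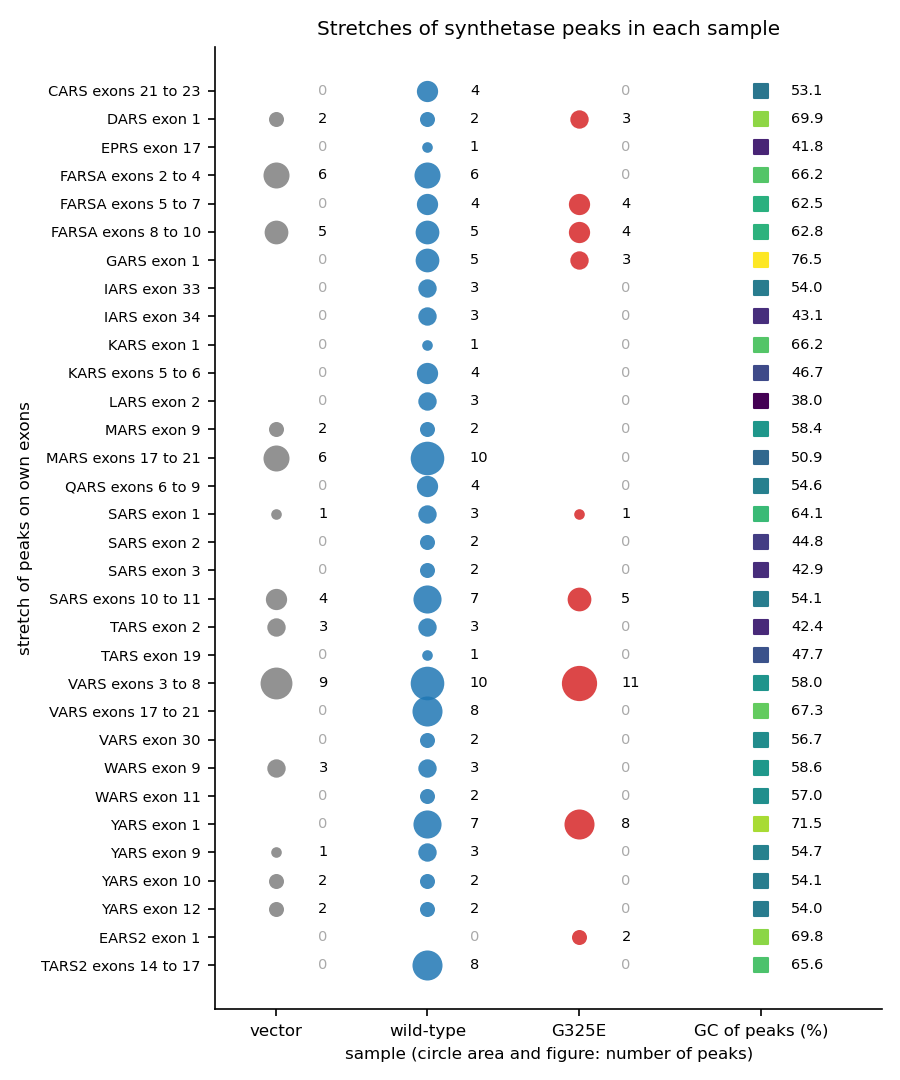
Number of own-exon peaks (circle area and printed number) in each of 32 stretches of neighbouring exons (vertical axis), for the 3 samples, with the GC content of the genome under the peaks at the right (squares, %). Of the stretches, 31 are filled in wild-type, and the 9 filled in G325E have a GC content of 54.1% or more.

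Peaks over the annotated start codon were found on 1 member in vector (DARS), 4 in wild-type (DARS, GARS, KARS and YARS) and 4 in G325E (DARS, GARS, YARS and EARS2). Such peaks were not counted for other genes, nor were the stop-codon peaks given below, so these counts have no background. DARS had no own-exon peak outside exon 1 in any sample.

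GARS encodes the cytosolic and the mitochondrial enzyme from 1 gene, and the first in-frame ATG after the annotated start is codon 55. A wild-type peak (−39 to 4 nt, counted from 0 at the A of the ATG, as in the first set of sequences above) and a G325E peak (−37 to 13) covered the annotated start, and another peak in each (96 to 186 and 130 to 186) covered codon 55. Both samples also had a peak in the 5′-UTR, at −75 to −45 in wild-type and −73 to −45 in G325E. A further G325E peak on the same strand (30634421 to 30634444) was annotated as 5′-UTR of GARS. It is not among the own-exon peaks, because the reference transcript starts at 30634449. No later exon of GARS had a peak. Over all 36 members, 31 had a purine 3 nt before the start codon, but among the 5 with a start-codon peak it was 2 (KARS and YARS). GARS and EARS2 had a C there, while codon 55 of GARS has an A there and a G after the ATG. With 5 genes this is a description only. Stop codons lay under a peak on MARS in vector, and on IARS, MARS and VARS in wild-type.

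By the authors' region classes, 66.7% (53.7 to 77.5), 68.2% (60.4 to 75.2) and 41.8% (30.7 to 53.7) of annotated synthetase peaks were exonic, against 49.4%, 51.5% and 35.5% for all other genes. Promoter-TSS peaks made up 15.8%, 12.2% and 29.9% (other genes 23.0%, 21.2% and 34.7%), and 5′-UTR peaks 3.51%, 5.41% and 16.4% (5.06%, 5.16% and 8.63%). Many of the 9, 18 and 20 promoter-TSS peaks lay outside the synthetases. Peaks annotated to KARS on the TERF2IP side were 9, 10 and 7 of them, and those annotated to EARS2 on the UBFD1 side 0, 2 and 6. Of the own-exon peaks placed on the reference transcript, 1 of 46 (2.17%, 0.385 to 11.3), 12 of 122 (9.84%, 5.72 to 16.4) and 11 of 41 (26.8%, 15.7 to 41.9) lay in the 5′-UTR, and for other genes 13.5%, 13.2% and 27.4%. YARS alone held 7 of the 12 in wild-type and 7 of the 11 in G325E, and DARS and GARS the other 4 in G325E. Without YARS, left out after its values were seen, the shares were 2.44%, 4.63% and 12.1%.

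Along the coding sequence (0 at the start, 1 at the stop), synthetase peaks had a mean position of 0.493 (SD over 45 peaks 0.334), 0.547 (108 peaks, 0.333) and 0.355 (29 peaks, 0.301). Other genes had means of 0.497, 0.503 and 0.401. The first 10% of the coding sequence held 11.1%, 12.0% and 20.7% of synthetase peaks and 13.7%, 12.8% and 22.7% of those of other genes. First exons held 3 of 46 own-exon peaks (6.52%, 2.24 to 17.5), 18 of 122 (14.8%, 9.54 to 22.1) and 17 of 41 (41.5%, 27.8 to 56.6), against 25.7%, 24.0% and 51.6% for other multi-exon genes. In number, first-exon peaks of synthetases were 18 in wild-type and 17 in G325E, while those on later exons were 104 and 24. First-exon peaks of the other multi-exon genes were 3173 of 13206 and 4421 of 8570, so that their later-exon peaks were also fewer in G325E. Without YARS, which held 8 of the 17, first exons held 7.32%, 10.2% and 27.3% of synthetase peaks.

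Merged over samples, the own-exon peaks formed 128 sites, runs of overlapping peaks on 1 strand. Wild-type alone had 65 (50.8%, 42.2 to 59.3, against 32.8% over all genes), 23 were shared by vector and wild-type (all genes 15.0%), 19 by all 3 (14.8%, against 18.7% over all genes), 13 by wild-type and G325E (10.2%, against 8.02%) and 0 by vector and G325E (against 1.38%). G325E alone had 5 (3.91%, 1.68 to 8.82, against 19.2% over all genes) and vector alone 3 (2.34%, against 4.93%). A wild-type peak overlapped 36 of the 41 from G325E (87.8%, 74.5 to 94.7, against 60.3% over all genes) and 43 of the 46 from vector (93.5%, 82.5 to 97.8, against 84.9%). The 5 sites of G325E alone were on DARS, EARS2 and YARS, all in exon 1.

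GC content moved with these patterns, and its part in them was not tested. In the 31 nt around the midpoint, own-exon peaks held on average 56.6%, 58.2% and 65.1% GC (SD over peaks 10.6, 11.6 and 9.81), where all same-strand exonic peaks held 60.4%, 59.8% and 69.7%. The 37 sites with a G325E peak had a median of 67.7% (45.2 to 80.6), and the 88 with a wild-type but no G325E peak 54.8% (35.5 to 83.9). Among the stretches with at least 3 wild-type peaks, the 7 filled in G325E had a median GC of 62.8% (54.1 to 76.5) and the 13 empty ones 54.0% (38.0 to 67.3). The ranges overlap: exons 17 to 21 of VARS (67.3%), exons 2 to 4 of FARSA (66.2%) and exons 14 to 17 of TARS2 (65.6%) were empty in G325E, and exons 10 to 11 of SARS (54.1%) were filled. For vector the medians were 58.0% (9 filled) and 54.6% (11 empty). Whole coding sequences differed less, with a median of 51.7% GC for the 7 members with G325E peaks and 49.4% for the 10 with peaks in another list only. The 19 members with no own-exon peak had 52.5%.

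**Figure D4:**
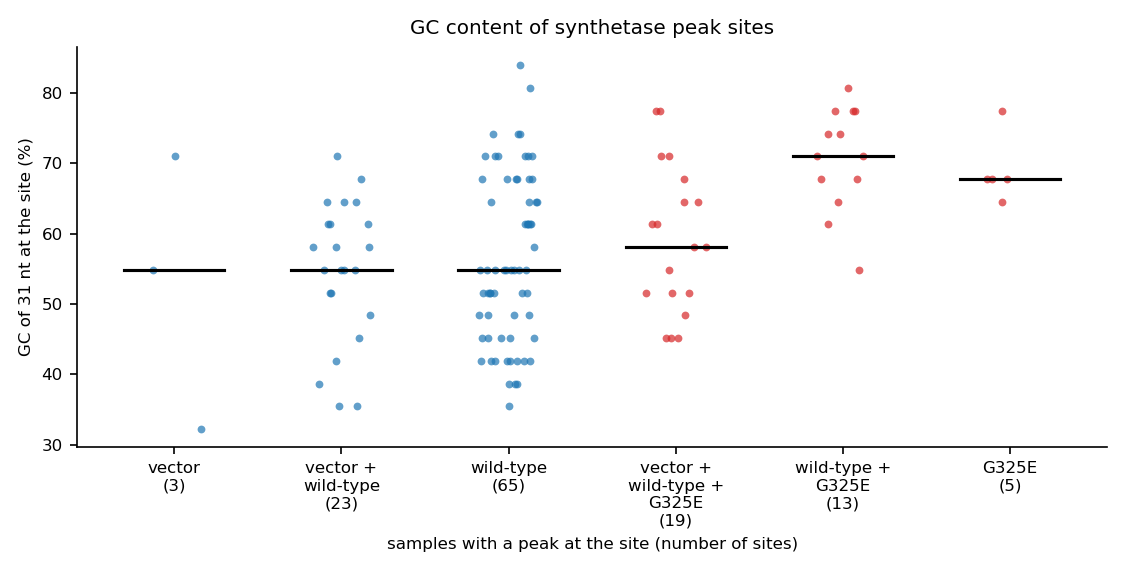
GC content of the 31 nt at the middle of each of 128 synthetase peak sites (vertical axis, %), grouped by the samples that had a peak there (1 point per site, bars at the median, patterns with a G325E peak in red). Medians are 54.8% in the 3 groups without G325E and 58.1%, 71.0% and 67.7% in those with it.

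Of the scaffold proteins of the complex, AIMP1 had 6, 4 and 0 own-exon peaks, and AIMP2 and EEF1E1 had 0. Of 10 other proteins that charge or handle tRNAs, 3 had peaks in some sample: XPOT, the exporter of tRNAs from the nucleus, with 3, 2 and 4, DTD1, which removes D-amino acids from tRNAs, with 2, 3 and 0, and PSTK, a kinase of the selenocysteine pathway, with 0, 2 and 0 (named after its values were seen). Of 18 genes of the amino acid response, which includes many synthetases among its targets, 11 had peaks in some sample. They summed to 48, 50 and 45. ATF4, the transcription factor that drives this response, had 7, 9 and 5, the sestrin SESN2 10, 8 and 0, the amino acid transporter subunit SLC3A2 14, 6 and 7, and CEBPB 5, 4 and 14. DDIT3 had 8, 8 and 0 peaks by the annotation and 0 on its own exons, since these lay on the MARS strand.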

How the data were processed

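The deposited files were lists of peak coordinates (start, end, strand, annotated region, distance to the transcription start site and nearest gene), 1 per sample. The submitters' processing notes name cutadapt, BWA 0.5.5 and hg19. The authors describe adapter trimming, removal of duplicates and peak calling at a coverage cut-off for their CLIP-seq, and state that the same peak detection served here. HOMER annotated the peaks. The lists carry no score, so every value here is a number, share or position of peaks, and no count model or p-value was used.

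RefSeq identifiers in the annotation were matched to genes through the files (30142 peaks) and then through a RefSeq gene table (15291 peaks, 40 of them on synthetases that the files left unnamed), and 1386 peaks kept the nearest gene name. Midpoints were placed on the canonical GENCODE 44 transcript lifted to GRCh37, its first exon extended to the most upstream annotated end. A peak of no length was taken as 1 base. Wilson intervals are at 95%. Ratios were scaled to the geometric mean of the totals. Every member could be named, list genes by at least 5 peaks, and neighbours that received or lost member peaks after their values were seen. The members and lists were chosen with earlier results of these data known. Ratios, placement and overlap were tested on simulated data. Software was Python 3.11.15, numpy 2.4.6, pandas 2.3.3, scipy 1.17.1 and matplotlib 3.10.9. Sequences of 1 member are not reported here.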

Additional observations from a re-analysis of the deposited data

Results flagged for a closer look

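Peaks that the annotation gave to synthetases but that lay off their exons entered no comparison of own-exon peaks. They were split by place, and those on a neighbour's exon were left out only beyond the transcript ends. Of the resulting shares, 3 were above that of the vector list. Intronic peaks on the synthetase strand made up 0.0452% of the wild-type list (9 peaks, 95% Wilson interval 0.0238 to 0.0859), 0.0178% of the vector list (2 peaks, 0.00489 to 0.0650) and 0.0128% of the G325E list (2 peaks). Peaks beyond the ends of the transcript and off any neighbour's exon made up 0.0638% of the G325E list (10 peaks, 0.0346 to 0.117), 0.0301% of the wild-type list (6 peaks, 0.0138 to 0.0657) and 0.00891% of the vector list (1 peak, 0.00157 to 0.0505). All these intervals overlap that of vector, cover counting error only, and were not tested further. Opposite-strand peaks within synthetases made up 0.0535%, 0.0502% and 0.0319% of the vector, wild-type and G325E lists.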

How the results depend on the processing

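No paired analysis was possible because each construct has 1 library. Of 495 recomputed values, 137 group summaries and 318 single-gene ratios stayed within counting error of the main value or, for plain counts, close to it. Another 37 and 2 moved, and 1 single-gene ratio reversed. A reversal was scored only where the main ratio was at least 2-fold, so smaller ratios could change sign without being scored. For ratios of a few peaks the counting error is wide. By the Gene Name column alone, the vector, wild-type and G325E lists held 29, 69 and 37 synthetase peaks (0.258%, 0.346% and 0.236%). With RefSeq names of the files only, a choice made after seeing the data, wild-type had 0.587%, 3 members lower in G325E than wild-type and 3 higher in wild-type than vector. Own-exon peaks, also added later, gave 41 in G325E, and in the order of the comparisons above (G325E against wild-type, G325E against vector, wild-type against vector) 0, 1 and 4 members higher, 0 lower in wild-type than vector, and a DARS log2 ratio of 0.31 in G325E against vector. With at least 10 peaks, 0, 1 and 1 members were higher and 2 were lower in G325E than wild-type. With 50% to 70% GC, 4 were lower in G325E than wild-type, 2 lower than in vector, 4 higher in wild-type than vector and 0 lower. Bases covered gave 2 higher in G325E than wild-type and 0 lower in wild-type than vector, as did median scaling (0). Apart from own-exon peaks, whose background is given above, the share over all genes was not computed for these settings. Their counts of members called thus have no background. On the reference transcript, exonic peaks (coding) were 97.8%, 88.5% and 70.7%. Weighted by length, intron peaks were 3.82% in wild-type and 0.736% in G325E. With 50% to 70% GC, G325E had 0 TTS and 0 intron peaks, and 6.25% of wild-type peaks lay in the first 10%. Mean GC was 56.0% in wild-type over the longer window, and 60.8%, 60.4% and 68.4% over all annotated peaks. Apart from these methods, the causes were not tested. Peak numbers this small, without read counts per peak or replicates, limit every per-gene comparison.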

Other observations

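Many of the shortest synthetase peaks lay at exon edges. Of 52 own-exon peaks under 20 nt, 47 reached to within 2 nt of an exon edge or past it (90.4%, 95% Wilson interval 79.4 to 95.8), against 71 of 157 longer ones (45.2%, 37.6 to 53.0). Over all multi-exon genes it was 3465 of 4860 (71.3%) and 8463 of 24521 (34.5%). On FARSA, a 6 nt peak near the start of exon 9 had the same edges in all 3 samples, and on TARS a 1 nt peak on exon 2 did so in vector and wild-type. On VARS, a 2 nt G325E peak and a 4 nt vector peak began at the same base near the start of exon 7. By sample, the longer peaks touched an edge in 17 of 33 (vector), 47 of 94 (wild-type) and 7 of 30 (G325E) cases.

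Opposite-strand peaks were found within 5 members: YARS (1, 3 and 3 in vector, wild-type and G325E), MARS (2, 4 and 0), DARS (3, 0 and 0), GARS (0, 1 and 2) and QARS (0, 2 and 0). On MARS they lay shortly upstream of the sense peaks on exon 9, in the same 2 samples.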
